A study of Mus musculus with 12 samples.

Results

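Messenger RNA levels were compared between cells labelled dermal sheath and hair follicle dermal stem cells, both sorted from mouse back skin, with 3 RNA sequencing libraries in each group. The members are the genes that reached at least 1 FPKM in at least 3 of these 6 libraries, 11739 of the 24692 entries of the deposited table. FPKM counts sequenced fragments relative to transcript length and to the mapped total of the library, so it is a level per length and values of different genes can be set side by side. The other 12953 entries were not tested.

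All 6 libraries came from male mice of the strain Sox2:GFP/aSMA:dsRed at about postnatal day 26 to 27, in early anagen, the opening of a hair growth phase. Both groups therefore carry both transgenes, a green fluorescent protein reporter for the transcription factor gene Sox2 and a red fluorescent reporter named for alpha smooth muscle actin, the product of Acta2. Back skin was digested with dispase and collagenase, stained with antibodies that the labels do not name and sorted by fluorescence, and the RNA was captured on oligo(dT) beads for SOLiD sequencing. The series also holds dermal papilla and interfollicular dermis libraries, which do not enter the comparison. The labels give sheath replicates the numbers 1, 4 and 5 and stem cell replicates the numbers 1, 2 and 4, and the title of sheath replicate 1 has an extra letter that they do not explain. They do not state whether different animals gave the replicates. The p-values therefore rest on library-to-library spread alone, part of which may be technical.

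As background, the dermal sheath is the connective tissue sleeve around the hair follicle, in which cells with smooth muscle actin lie against the basement membrane of the outer root sheath. Hair follicle dermal stem cells sit in the lower part of that sleeve and replenish both the sheath and the dermal papilla, the mesenchymal cluster at the follicle base. The epithelial side of the same structure holds the basal cells of the outer root sheath and the matrix, whose rapidly dividing cells build the inner root sheath and the hair shaft during anagen. Fibroblasts and epithelial cells use different keratins or vimentin, different cadherins and different integrins, so the transcript lists below separate the lineages.

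The comparison would show how sheath cells differ from their stem cells if both groups were mesenchymal, and the markers of the sheath-labelled libraries go against that label. Of 15 fibroblast identity genes tested, 0 were higher and 14 were lower in the sheath-labelled libraries, against 30.3% of all tested genes higher and 22.1% lower. Of 13 basal keratinocyte genes 9 were higher and 0 lower, and of 16 genes of the hair matrix and inner root sheath 11 were higher and 0 lower. The group is therefore called by its label throughout, and a contrast of cell lineages cannot be told apart from a contrast of stem cells and sheath. In sorted bulk samples, fewer cells of a type and less RNA per cell cannot be told apart either. The counts of every list below are to be read against those shares of all tested genes, and no list is called particular from them.

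Values for single libraries are given in the order of replicates 1, 4 and 5 for the sheath label and 1, 2 and 4 for stem cells. Acta2, whose promoter names the red reporter, lies on chromosome 19, 34240336 to 34255585 (GRCm38.p6, as for all positions given). It had 35.8, 36.2 and 75.97 FPKM in the sheath-labelled libraries and 866, 901 and 849.8 FPKM in dermal stem cells. Every stem cell library was above every sheath-labelled one (log2 fold change -4.21, SE 0.31, adjusted p = 9.21e-05). Fold changes are differences of mean log2(FPKM + 1), sheath label minus stem cells, SE is their standard error from limma, and adjusted p-values are Benjamini-Hochberg values over all 11739 genes. Sox2 lies on chromosome 3, 34649995 to 34652461 and had 0.0373, 0.292 and 0.13 FPKM in the sheath-labelled libraries and 1.15, 1.17 and 1.11 FPKM in dermal stem cells. The groups did not overlap, but Sox2 reached the filter through the stem cell libraries alone, at just over 1 FPKM, so no test of it is given.

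Fibroblast transcripts were low in the sheath-labelled libraries but not absent. The receptor gene Pdgfra, which marks dermal fibroblasts, was read at 3.96, 4.22 and 1.52 FPKM in the sheath-labelled libraries and 49.01, 48.9 and 70.6 FPKM in dermal stem cells. Thy1, a surface glycoprotein of fibroblasts, was read at 16.9, 21.3 and 22.6 FPKM in the sheath-labelled libraries and 269, 274 and 264 FPKM in dermal stem cells. Both sets of values left a wide gap between the groups (-3.81 for Pdgfra and -3.68 for Thy1). Dpt, which encodes the collagen-binding protein dermatopontin, had the largest fold change of the list (-5.21), and Lum, a keratan sulfate proteoglycan of collagen fibrils, had -4.36. Fbln1, a fibulin of the matrix, was the member that did not pass (21.2, 19.4 and 30.9 FPKM against 46.7, 29.8 and 16.9 FPKM). Summed over the list, the sheath-labelled libraries had 1223 to 2379 FPKM and the stem cell libraries 13800 to 18460 FPKM.

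Epithelial markers ran the other way without being absent from dermal stem cells. Trp63 (chromosome 16, 25683763 to 25892088), the master regulator of stratified epithelium, was measured at 98.7, 116 and 146 FPKM in the sheath-labelled libraries and 9.23, 20.8 and 16.4 FPKM in dermal stem cells (log2 fold change 2.93, SE 0.30, adjusted p = 0.000287). Krt5, a basal keratin, was read at 406, 366 and 411 FPKM in the sheath-labelled libraries and 96.1, 179 and 79.4 FPKM in dermal stem cells (1.82). The lowest sheath-labelled library exceeded the highest stem cell library for both. Krt14, the usual partner of Krt5, did not pass (92.3, 59.2 and 86.1 FPKM against 69.3, 98.9 and 37.98 FPKM, adjusted p = 0.53). Among genes of the matrix and inner root sheath, Krt28 was read at 199.6, 167 and 154 FPKM in the sheath-labelled libraries and 15.3, 34.6 and 7.33 FPKM in dermal stem cells and Krt71 at 526, 512 and 269 FPKM in the sheath-labelled libraries and 163, 165 and 60.97 FPKM in dermal stem cells. Both encode inner root sheath keratins, and neither overlapped between the groups. Of 8 hair shaft keratin genes tested 0 passed (3 were lower without sheath-labelled replicate 5 and 2 without dermal stem cell replicate 4), and Krt35 was read at 8.7, 8.18 and 8.26 FPKM in the sheath-labelled libraries and 14.2, 16.1 and 6.05 FPKM in dermal stem cells. The list of 12 differentiated epidermis genes gave 2 higher and 5 lower, led by Krtdap (-3.63), Krt1 (-3.37) and Krt10 (-3.13), keratinocyte genes above the basal layer. Those 5 lower calls all ended without dermal stem cell replicates 1 and 2, an alternative chosen after seeing the data. Neither higher call was left without dermal stem cell replicate 1 or 4 or with median-of-ratios scaling, and 1 was left without sheath-labelled replicate 1 or 4.

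**Figure D1:**
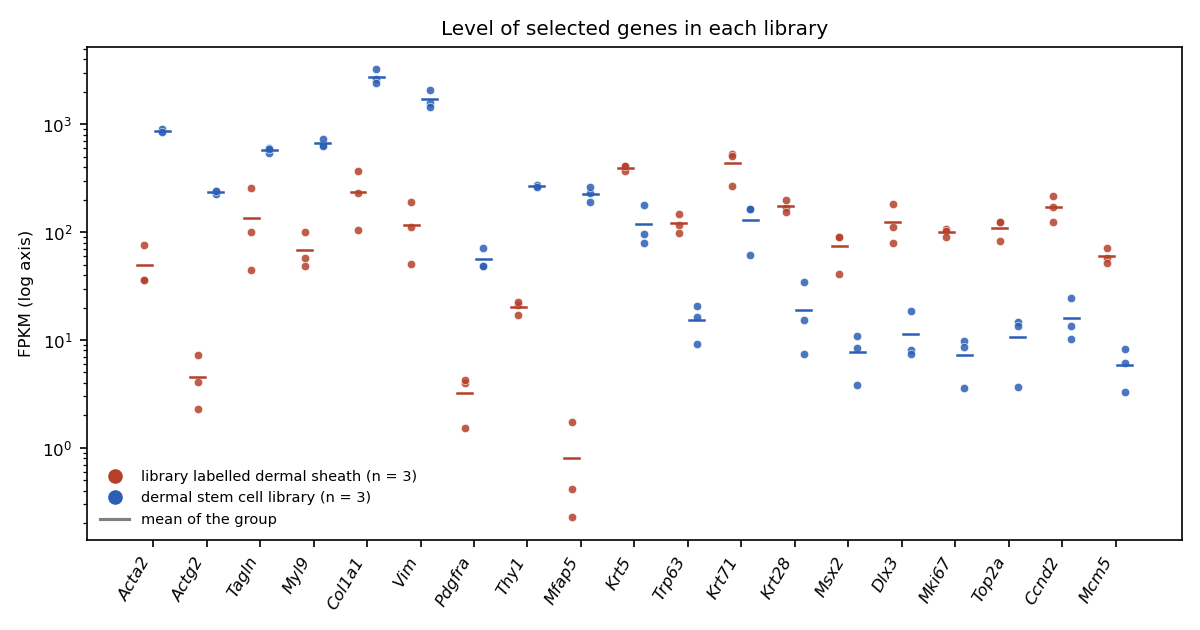
FPKM of 19 genes in each library on a log axis, with red points for the 3 libraries labelled dermal sheath, blue points for the 3 dermal stem cell libraries and bars for group means. Contractile and fibroblast genes from Acta2 to Mfap5 sit lower in red, epithelial and cell cycle genes from Krt5 to Mcm5 sit higher in red, and the points of the groups do not overlap for any of the 19.

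Among markers of other cells of skin, those of immune cells varied widely between libraries of each group. The summed immune list had 601.6, 47.36 and 38.04 FPKM in the sheath-labelled libraries and 1836, 1162 and 67.62 FPKM in dermal stem cells. Dermal stem cell replicate 4 and sheath-labelled replicates 4 and 5 were thus low and the other 3 libraries high. The pan-leukocyte gene Ptprc was at 0.214 FPKM or less in those 3 low libraries and at 4.79, 0.0378 and 0.072 FPKM in the sheath-labelled libraries and 16.7, 6.62 and 0.214 FPKM in dermal stem cells over all 6. Of 13 immune genes tested 4 passed, all lower in the sheath-labelled libraries: Tyrobp (-4.53), Fcer1g (-4.20), Csf1r (-3.85) and Cd68 (-3.08), genes of macrophages and related myeloid cells. All 4 calls ended on leaving out sheath-labelled replicate 4 or 5 or dermal stem cell replicate 1 or 2, and 8 were lower without dermal stem cell replicate 4. With the replicate number as a block 4 genes of the list were higher in the fit of 6 libraries and 1 in that of all 12. The mast cell protease gene Cpa3 was read at 149, 2.02 and 2.13 FPKM in the sheath-labelled libraries and 25.1, 77.1 and 0.41 FPKM in dermal stem cells, high in 1 sheath-labelled library and in 2 of stem cells.

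The endothelial list summed to 24.2 to 87.14 FPKM under the sheath label and 65.59 to 202.5 FPKM in dermal stem cells, with 0 of 13 higher and 2 lower, the receptor genes Tek (-2.80) and Eng (-2.52). Of these, Tek reached the filter through the stem cell libraries alone. The melanocyte, Schwann cell and adipocyte sums were lower in every sheath-labelled library, at 33.12 to 39.36, 69.25 to 85.97 and 46.14 to 358.6 FPKM against 276.9 to 468, 291.9 to 448.8 and 401.6 to 748 FPKM in dermal stem cells. Most of the stem cell sum came from a single gene on the melanocyte list (Ednrb) and on the Schwann cell list (Pmp22). Summed without that gene, each of these lists overlapped between the groups. The adipocyte sums overlapped too without the lipoprotein lipase gene Lpl, which gave 196 of the 401.6 FPKM in dermal stem cell replicate 4. Of the 9 adipocyte genes listed, 3 reached the filter. Melanocyte genes gave 1 higher and 3 lower of 9 tested. Ednrb, the endothelin receptor gene on that list, was read at 9.03, 6.31 and 8.72 FPKM in the sheath-labelled libraries and 338, 364 and 256 FPKM in dermal stem cells (-5.15), while the pigment enzyme gene Dct did not pass (4.48, 7.17 and 5.77 FPKM against 20.9, 29.9 and 4.56 FPKM). Without dermal stem cell replicate 4, 7 melanocyte and 6 endothelial genes were lower. Schwann cell genes gave 1 higher, the neuregulin receptor gene Erbb3 (2.63), and 3 lower of 7, led by Pmp22 (35.16, 32.25 and 14.81 FPKM against 405.9, 246.6 and 260.2 FPKM, -3.48), and the lineage factor gene Foxd3 did not reach the filter. Whether any of these cells contribute to the differences below was not tested.

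**Figure D2:**
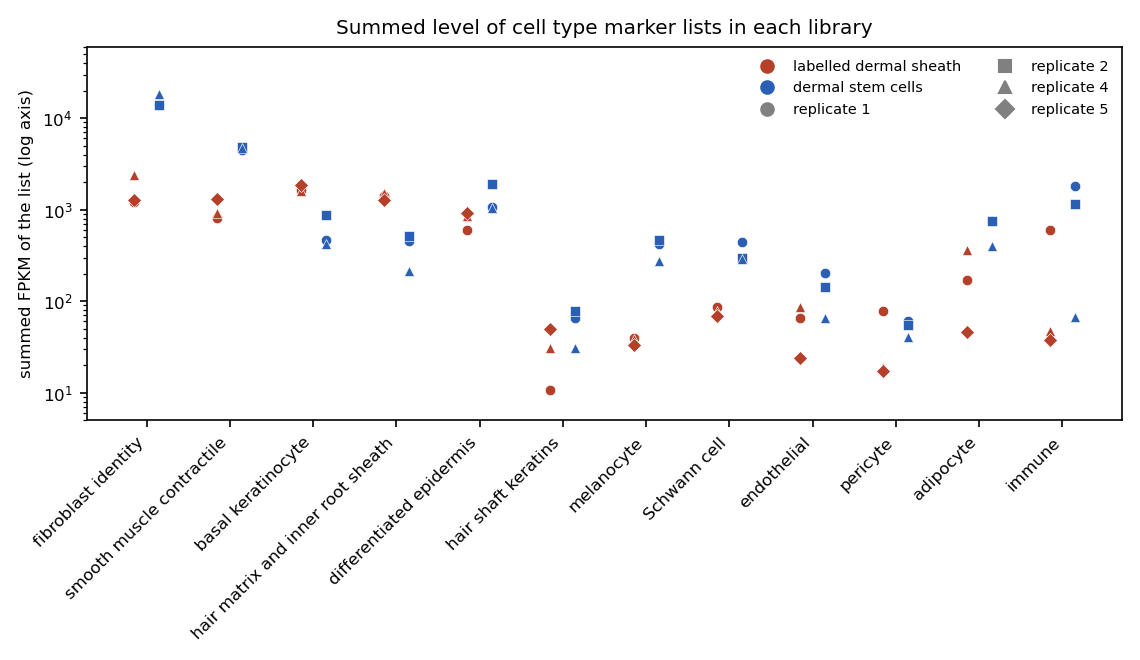
Summed FPKM of 12 marker lists in each library on a log axis, red for the libraries labelled dermal sheath, blue for dermal stem cells, with the marker shape giving the replicate number. Fibroblast and smooth muscle sums are higher in all blue points and basal keratinocyte and matrix sums in all red points, while the immune sum is low in sheath-labelled replicates 4 and 5 and dermal stem cell replicate 4.

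Across the whole transcriptome the groups were far apart. Of 11739 genes, 6152 passed (52.4%), 3552 higher and 2600 lower under the sheath label. With median-of-ratios scaling, which moved the median fold change of all genes from 0.17 to -0.04, the split turned to 2641 higher and 3157 lower, with 0 genes called in the opposite direction, so which small changes pass depends on the scaling. The filter was reached through the sheath-labelled libraries alone by 210 genes and through the stem cell libraries alone by 517, of which 193 and 504 passed, and such genes were bound to differ in level. Where the text gives a fold change of such a gene, this is stated, and the fold describes values only. The list counts and the shares of all tested genes include such genes where they passed. The lower genes had the larger changes: 963 fell at least 4-fold and 393 at least 8-fold, against 414 and 46 that rose as much. Among the 284 genes that averaged over 100 FPKM, 47.9% were lower and 22.9% higher. Correlation across genes of log2 values was 0.913 to 0.927 within the sheath label, 0.894 to 0.955 within stem cells and 0.52 to 0.681 between the groups, and genes are not independent replicates. Library sums ran from 190400 to 262700 FPKM, and the relative depth read from the steps of low values ran from 0.712 to 1.516 of that of dermal stem cell replicate 2. How many reads lie behind a value is not known.

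**Figure D3:**
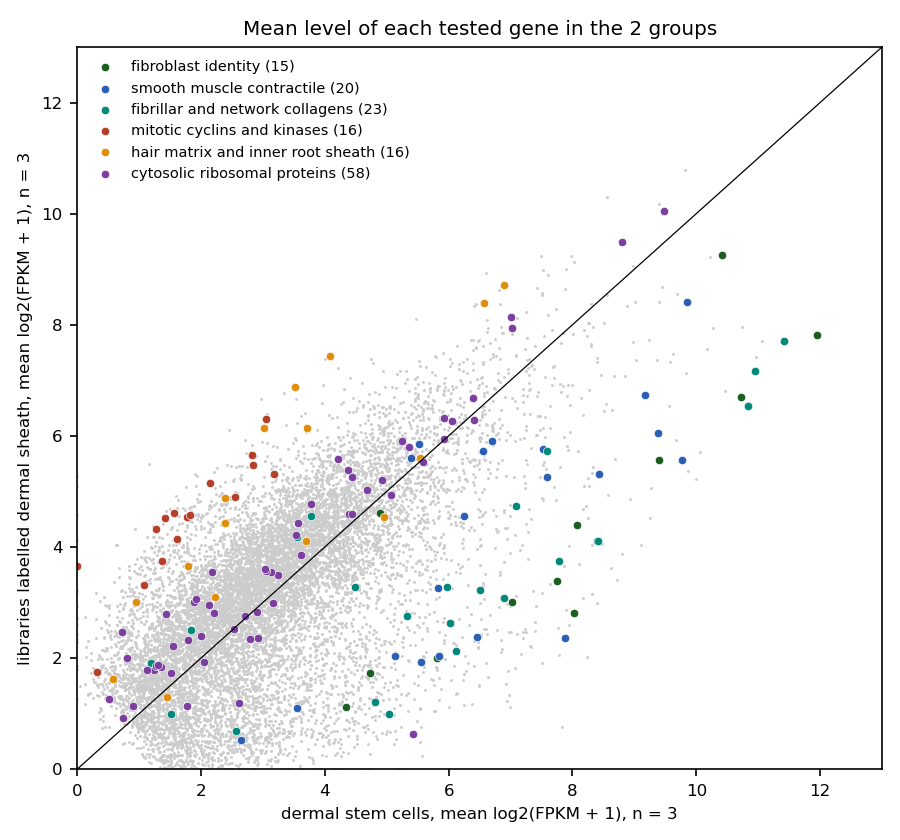
Mean log2(FPKM + 1) over 3 libraries of each tested gene in dermal stem cells (horizontal) and under the sheath label (vertical), with a line of equal levels, grey points for all 11739 genes and colours for members of 6 lists. Collagen, fibroblast and most smooth muscle genes lie below the line, mitotic genes above it, and the 58 ribosomal protein genes around it.

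The gene with the largest fold change was Mfap5 (chromosome 6, 122513584 to 122529290), a glycoprotein of elastic microfibrils, at 1.75, 0.416 and 0.227 FPKM in the sheath-labelled libraries and 229, 191 and 264 FPKM in dermal stem cells (log2 fold change -7.08, SE 0.31, adjusted p = 1.71e-05). Dpep1, a membrane dipeptidase gene, was read at 3.59, 3.63 and 2.42 FPKM in the sheath-labelled libraries and 245, 158 and 269.8 FPKM in dermal stem cells (-5.72). Clec3b, which encodes the plasminogen-binding protein tetranectin, was read at 1.51, 1.18 and 1.34 FPKM in the sheath-labelled libraries and 153, 133 and 88.3 FPKM in dermal stem cells (-5.71). Each of them separated the groups by a wide margin, as did Ccdc80 (-5.32), a matrix-binding protein gene, and Gpc3 (-5.40), a cell surface proteoglycan gene.

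Several of the largest changes followed the immune list by library. The chemokine gene Ccl8 was read at 7.05, 2.68 and 1.25 FPKM in the sheath-labelled libraries and 2589, 519 and 19.4 FPKM in dermal stem cells, and the complement gene C1qa at 4.74, 0.301 and 0.345 FPKM in the sheath-labelled libraries and 628, 235 and 12.98 FPKM in dermal stem cells. Their stem cell values spread widely, with replicate 4 lowest, as for C1qc (647, 255 and 10.9 FPKM in dermal stem cells), Pf4 (465, 240.4 and 15.1 FPKM) and Pltp (409.8, 181 and 80.5 FPKM). All 5 passed (-6.22, -5.88, -5.64, -5.40 and -5.61), and all 5 calls ended without dermal stem cell replicates 1 and 2. The part of immune cells in them was not tested.

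In the other direction the proliferation gene Mki67 led the genes with values above 0 throughout, at 108, 102 and 90.7 FPKM in the sheath-labelled libraries and 3.55, 9.84 and 8.57 FPKM in dermal stem cells (log2 fold change 3.70, SE 0.32, adjusted p = 0.000165). The homeobox gene Dlx2 was read at 41.1, 66.5 and 113 FPKM in the sheath-labelled libraries and 2.36, 11.9 and 2.75 FPKM in dermal stem cells (3.65) and its relative Dlx4 at 8.3, 27.9 and 15.6 FPKM in the sheath-labelled libraries and 0.379, 0.764 and 0.573 FPKM in dermal stem cells (3.39). Dlx factors act in hair matrix and in branchial arch development, and the groups did not overlap for either. Of these, Dlx4 reached the filter through the sheath-labelled libraries alone.

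Some large differences rest on values of exactly 0, which may be failed estimates. Polr2b, the second largest subunit of RNA polymerase II and thus a gene of every cell, was listed at 0 in all 3 dermal stem cell libraries and at 40.4, 38.4 and 34.8 FPKM under the sheath label. Pold2, a DNA polymerase delta subunit gene, was listed at 0 in dermal stem cells and at 26.3, 31.2 and 44.8 FPKM. Pigf, Nelfcd and Arg2 showed the same pattern, with sheath-labelled values of 18.2, 31.8 and 20.4, of 14.9, 18.7 and 16.1 and of 18.1, 7.99 and 11.6 FPKM. In reverse, Kdelr3, a receptor that retains secretory chaperones, was listed at 0 under the sheath label and at 40.3, 48.2 and 69.5 FPKM in dermal stem cells, and Hspb2, a small heat shock protein gene of muscle, at 0 and 42.2, 52.02 and 37.6 FPKM. In all, 31 genes were listed at 0 in every sheath-labelled library and above 0 in every stem cell library, and 16 the other way round. No fold change is given for them.

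**Figure D4:**
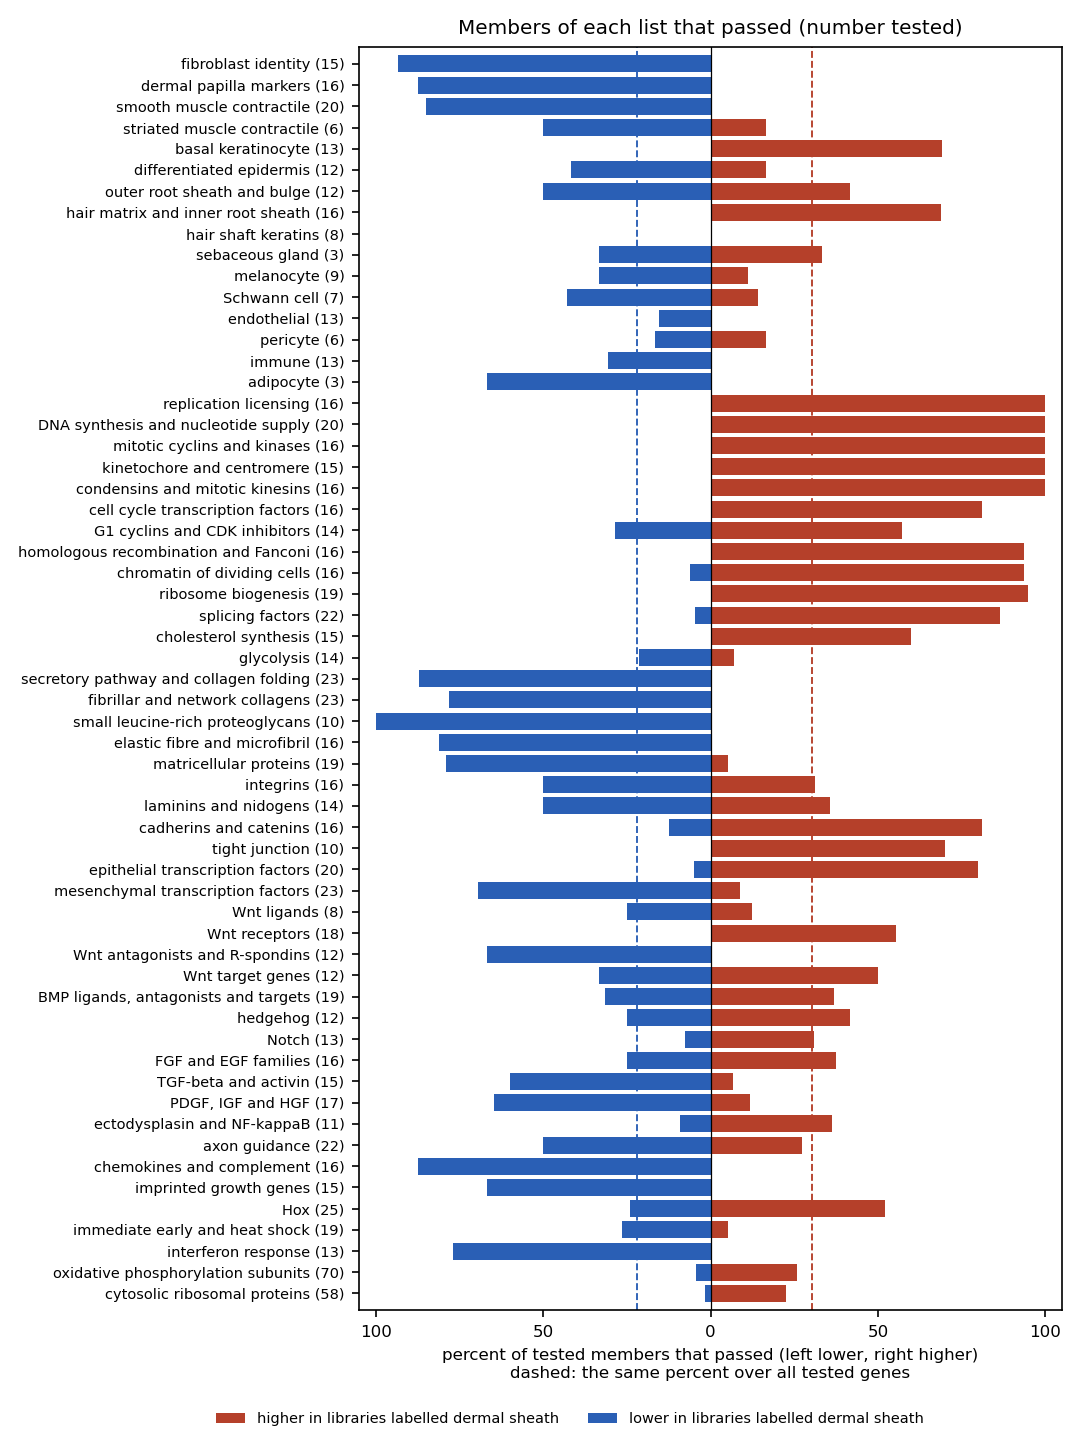
Percent of tested members of each of 59 lists that passed, with bars to the right for members higher under the sheath label and to the left for members lower, and dashed lines at the 30.3% and 22.1% over all tested genes. The 5 lists from replication licensing to mitotic kinesins reach 100% on the right, the small leucine-rich proteoglycans reach 100% on the left, and ribosomal protein genes stay under both lines.

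Genes of the contractile apparatus were lower in the sheath-labelled libraries, although the sheath is the contractile layer of the follicle. Of 20 smooth muscle genes 0 were higher and 17 lower. Actg2 (chromosome 6, 83512909 to 83536251), the gamma smooth muscle actin gene, was measured at 4.06, 7.19 and 2.31 FPKM in the sheath-labelled libraries and 240.2, 228 and 239 FPKM in dermal stem cells (log2 fold change -5.52, SE 0.31, adjusted p = 3.25e-05). Mylk, the myosin light chain kinase gene, was read at 11.6, 3.7 and 1.41 FPKM in the sheath-labelled libraries and 92.8, 106 and 66.03 FPKM in dermal stem cells (-4.07). The lowest dermal stem cell library was more than any sheath-labelled library for both. The smooth muscle myosin gene Myh11 (-3.81) and the desmin gene Des (-3.64) also passed. Flna, which crosslinks actin in most cells, did not pass (93.3, 38.9 and 55.99 FPKM against 103, 103 and 103 FPKM), nor did the smoothelin gene Smtn (46.6, 33.6 and 67.5 FPKM against 39.1, 45.1 and 38.4 FPKM). Without dermal stem cell replicates 1 and 2, which leaves replicate 4 alone, assumed to vary like the sheath-labelled group, 10 of the 20 were lower, and the calls of Myh11 and Des ended.

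Some genes of striated muscle were also strong in dermal stem cells. Tnnt1 (chromosome 7, 4504569 to 4515975), the slow skeletal troponin T gene, was measured at 0.368, 0.0656 and 0.107 FPKM in the sheath-labelled libraries and 43.8, 39.9 and 58.2 FPKM in dermal stem cells (log2 fold change -5.35). It reached the filter through the stem cell libraries alone, so no test of it is given. Casq2, the cardiac calcium store protein gene, was read at 2.16, 1.37 and 2.33 FPKM in the sheath-labelled libraries and 38.4, 34.8 and 57.8 FPKM in dermal stem cells (-3.90). Neither gene came near overlap between the groups. Of 16 striated genes listed only 6 reached the filter, 3 of them lower, Tnnt1 included, and 1 higher. The higher one was Mylpf (1.12), a call that ended without any 1 of sheath-labelled replicates 4 and 5 and dermal stem cell replicates 2 and 4. The cardiac troponin T gene Tnnt2 did not pass (0.716, 1.35 and 0.714 FPKM against 0.799, 3.72 and 4.24 FPKM), and the skeletal actin gene Acta1 was at 0.845, 0.88 and 0.971 FPKM against 2.37, 1.38 and 1.78 FPKM.

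Promoters of Tnnt1 and of Myl9, the smooth muscle myosin light chain gene (48.1, 56.99 and 101 FPKM against 640.1, 735 and 628 FPKM, -3.33), are shown because each holds an element known from muscle or tissue-restricted genes. Each is the 250 bases before the gene's start from RefSeq (GRCm38.p6), 5′ to 3′ on the gene's strand: Tnnt1 chr7:4515976-4516225 on the minus strand and Myl9 chr2:156775214-156775463 on the plus strand. Capitals mark a TATAAA match in Tnnt1 and, in Myl9, a CArG box, the element that binds serum response factor.
Tnnt1: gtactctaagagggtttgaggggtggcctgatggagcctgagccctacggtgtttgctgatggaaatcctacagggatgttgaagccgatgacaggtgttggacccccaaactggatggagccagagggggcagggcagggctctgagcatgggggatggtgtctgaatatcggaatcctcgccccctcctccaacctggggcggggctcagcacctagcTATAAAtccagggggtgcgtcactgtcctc
Myl9: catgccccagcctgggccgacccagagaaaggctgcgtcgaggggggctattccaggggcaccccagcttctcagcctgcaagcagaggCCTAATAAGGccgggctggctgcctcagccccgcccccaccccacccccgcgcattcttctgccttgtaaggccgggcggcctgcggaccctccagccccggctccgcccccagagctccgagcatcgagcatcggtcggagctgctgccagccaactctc
The Tnnt1 match begins 30 bases before the start, and that of Myl9 begins 161 bases before it. Of 18 promoters matched for 16 of the 20 smooth muscle genes, 11.1% hold a CArG box and 11.1% hold TATAAA. The shares were 1.23% and 6.76% of the 11579 promoters of tested genes, and 1.47% and 12.4% of all 32851 promoters searched. The TATAAA share was thus not above that of all promoters, and shares of 18 promoters rest on few matches. A match is a description of letters on either strand, not evidence of binding.

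Genes of the extracellular matrix were lower under the sheath label across several classes. Of 23 collagen genes tested 0 were higher and 18 lower, and all 10 small leucine-rich proteoglycan genes tested, which space collagen fibrils, were lower. Of 16 elastic fibre genes 13 were lower, and of 19 matricellular genes, whose secreted products tune cell adhesion, 15 were lower and 1 higher. All tested genes were lower in 22.1% of cases. Except for the collagens, of which up to 3 were higher under some alternatives, and the elastic fibre genes, of which 1 was higher without sheath-labelled replicate 4, none of these counts moved by more than 1.5 times under another pseudocount, filter, normalization or fit, or on leaving out 1 library.

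Col6a2, a chain of the beaded-filament type VI collagen, was read at 15.98, 16.7 and 15.8 FPKM in the sheath-labelled libraries and 292, 274 and 490.0 FPKM in dermal stem cells (log2 fold change -4.31, SE 0.24, adjusted p = 3.26e-05). Its partner chains Col6a1 (-4.28) and Col6a3 (-4.04) were lower too, as was the fibrillar chain Col3a1 (-4.30). Collagens made by epithelia did not pass: Col17a1, the hemidesmosomal collagen, was at 24, 14.5 and 14.2 FPKM in the sheath-labelled libraries and 13.3, 16.4 and 5.4 FPKM in dermal stem cells, and Col4a5 was at 6.05, 3.66 and 4.66 FPKM against 2.3, 5.27 and 1.21 FPKM. The more widely used basement membrane chain Col4a1 was lower (-1.88), as was Col4a2 (-2.35).

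Ogn (chromosome 13, 49608015 to 49624501), the osteoglycin gene, was measured at 5.65, 11.2 and 1.74 FPKM in the sheath-labelled libraries and 216, 232 and 297 FPKM in dermal stem cells (log2 fold change -5.35, SE 0.48, adjusted p = 0.000186). Omd, the osteomodulin gene, was read at 2.81, 5.17 and 0.882 FPKM in the sheath-labelled libraries and 117, 98.5 and 204 FPKM in dermal stem cells (-5.24), and Prelp had a fold change of -4.84. Dcn, the decorin gene, was far more even, at 494, 869.9 and 524 FPKM in the sheath-labelled libraries and 1355, 1311 and 1435 FPKM in dermal stem cells (-1.17). Its call ended without sheath-labelled replicate 5 or dermal stem cell replicate 1, and with quantile normalization its sign turned (0.228).

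Among the microfibril genes Mfap4 was read at 5.97, 30.1 and 20.4 FPKM in the sheath-labelled libraries and 288, 326 and 478 FPKM in dermal stem cells (-4.42), and Fbn1, which encodes the fibrillin backbone, at 7.78, 5.85 and 2.11 FPKM in the sheath-labelled libraries and 83.7, 79.04 and 132 FPKM in dermal stem cells (-4.08). The groups did not overlap for them or for Fbln2 (-4.05). Of the matricellular genes, Cthrc1, a secreted collagen triple helix protein, was read at 0.262, 0.392 and 0.0457 FPKM in the sheath-labelled libraries and 16.8, 23.6 and 19.3 FPKM in dermal stem cells (-4.08), and the CCN family gene Wisp1 had -3.64. Both reached the filter through the stem cell libraries alone. Tnc, the tenascin-C gene, was the member that rose, at 43.7, 26.2 and 29.7 FPKM in the sheath-labelled libraries and 6.13, 14.5 and 9.66 FPKM in dermal stem cells (log2 fold change 1.66, SE 0.32, adjusted p = 0.00358).

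Genes that fold and crosslink collagen were mostly lower as well. Of 23 secretory and collagen-modifying genes 20 were lower and 0 higher. Pcolce, the enhancer of procollagen C-proteinase, was read at 12.4, 14.1 and 14.6 FPKM in the sheath-labelled libraries and 458, 408 and 469.9 FPKM in dermal stem cells (log2 fold change -4.92, SE 0.17, adjusted p = 1.32e-05). Lox, which encodes lysyl oxidase, was read at 2.88, 3.27 and 2.45 FPKM in the sheath-labelled libraries and 42.8, 50.1 and 84.1 FPKM in dermal stem cells (-3.90). Fkbp7, a prolyl isomerase of the endoplasmic reticulum, also fell (-3.90), and its relative Fkbp10 passed as lower with 1 sheath-labelled value listed at 0 (3.39, 2.76 and 0 FPKM against 30.1, 30.8 and 52.9 FPKM). P4hb, the disulfide isomerase that serves all secreted proteins, did not pass, at 173, 129.6 and 153 FPKM in the sheath-labelled libraries and 192, 194 and 229.6 FPKM in dermal stem cells, and Mia3, a cargo receptor for bulky collagen, was at 17.3, 14.99 and 10.9 FPKM against 16.5, 16.5 and 19.6 FPKM.

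Cell adhesion genes differed in both directions. Of 16 integrin genes 5 were higher and 8 lower, against 30.3% and 22.1% of all tested genes, so the higher share was near that of all genes. Itga11, a collagen receptor of fibroblasts, was read at 0.73, 0.251 and 1.27 FPKM in the sheath-labelled libraries and 54.1, 37.4 and 47.1 FPKM in dermal stem cells (log2 fold change -4.78, SE 0.27, adjusted p = 3.29e-05). Itga8 (-3.44) and the fibronectin receptor gene Itga5 (-3.06) were lower as well. The hemidesmosome pair was higher: Itgb4 was read at 17.5, 10.7 and 20.01 FPKM in the sheath-labelled libraries and 3.9, 4.95 and 2.8 FPKM in dermal stem cells (1.78) and Itga6 had a fold change of 1.58. Itgb1, which pairs with most alpha chains in both lineages, was at 73.7, 67.2 and 67.7 FPKM in the sheath-labelled libraries and 196, 187 and 211 FPKM in dermal stem cells (-1.50).

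Of 14 laminin and nidogen genes 5 were higher, not far from the 30.3% of all genes, and 7 lower, against 22.1%. Nid2, a linker of laminin and collagen networks, was read at 2.81, 2.44 and 1.13 FPKM in the sheath-labelled libraries and 60.9, 45.6 and 96.4 FPKM in dermal stem cells (-4.43), and Lama2, a laminin chain of muscle and mesenchyme, had -2.96. Lama5, the chain of epithelial basement membranes, was higher, at 27.7, 14.1 and 28.9 FPKM in the sheath-labelled libraries and 3.85, 5.71 and 3.11 FPKM in dermal stem cells, as was Agrn, the agrin gene (1.80). The calls of Lama3 (1.15) and Lamb3 (0.67), which encode chains of the epithelial laminin of hemidesmosomes and were also higher, ended without sheath-labelled replicate 1 or 5 or dermal stem cell replicate 1, and that of Lamb3 also without replicate 4 of either group.

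Cell-cell adhesion genes were mostly higher. Of 16 cadherin, desmosome and catenin genes 13 were higher and 2 lower. The 2 lower ones were Cdh11, a mesenchymal cadherin, at 3.72, 4.88 and 2.44 FPKM in the sheath-labelled libraries and 74.6, 67.9 and 134 FPKM in dermal stem cells (log2 fold change -4.28, SE 0.31, adjusted p = 8.68e-05), and Cdh13, a membrane-anchored cadherin, at 4.89, 5.75 and 1.28 FPKM in the sheath-labelled libraries and 151, 78.2 and 128 FPKM in dermal stem cells (-4.69). Cdh3, the P-cadherin gene of hair matrix, was read at 39.6, 53.9 and 76.3 FPKM in the sheath-labelled libraries and 4.95, 12.5 and 9.17 FPKM in dermal stem cells (2.57), and the E-cadherin gene Cdh1 at 71.5, 44.5 and 44.7 FPKM in the sheath-labelled libraries and 17.8, 30.5 and 10.6 FPKM in dermal stem cells (1.49). None of the 4 overlapped between the groups. The desmosomal genes Dsg2 (2.56) and Dsc3 (2.54) rose, and of 10 tight junction genes 7 were higher and 0 lower, led by Marveld2 (2.32), Cldn10 (2.16) and Cldn8 (2.10). On the cadherin list 8 genes were higher without dermal stem cell replicates 1 and 2.

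The 2 lists of lineage transcription factors differed in direction. Of 20 epithelial factor genes 16 were higher and 1 lower (Klf4, -0.86), and of 23 mesenchymal factor genes 2 were higher and 16 lower. Dlx3, a homeobox gene of the hair matrix, was read at 78.8, 112 and 180.5 FPKM in the sheath-labelled libraries and 8.02, 18.6 and 7.38 FPKM in dermal stem cells (log2 fold change 3.37, SE 0.40, adjusted p = 0.000509). Msx2, a homeobox gene of the matrix that supports shaft formation, was read at 40.7, 90.8 and 90.6 FPKM in the sheath-labelled libraries and 3.83, 10.8 and 8.43 FPKM in dermal stem cells (3.12). Lhx2, a factor of hair follicle epithelium, was read at 47.8, 89.7 and 134 FPKM in the sheath-labelled libraries and 2.93, 15.9 and 7.78 FPKM in dermal stem cells (3.33), and Grhl2, a regulator of epithelial junction genes, had 2.79. The groups were apart for all of them.

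Tbx15 (chromosome 3, 99240348 to 99354260), a T-box gene of dorsal dermis, was measured at 4.02, 2.58 and 1.15 FPKM in the sheath-labelled libraries and 64.3, 62.8 and 111 FPKM in dermal stem cells (log2 fold change -4.52, SE 0.35, adjusted p = 0.000113). Prrx2 was read at 0.703, 1.39 and 0.472 FPKM in the sheath-labelled libraries and 38.4, 30.1 and 72.3 FPKM in dermal stem cells (-4.62), and its relative Prrx1 (-4.09) and the basic helix-loop-helix gene Twist2 (-4.00) were lower too. Snai2, of the epithelial-mesenchymal transition family, did not pass, at 11, 26.6 and 18.99 FPKM in the sheath-labelled libraries and 6.94, 12 and 9.8 FPKM in dermal stem cells. The 2 mesenchymal list genes called higher, Srf (0.57) and its coactivator Mkl1 (0.60), lost their calls in most alternatives, median-of-ratios scaling among them. Klf4 also lost its call in most alternatives, but kept it with median-of-ratios scaling.

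Hox genes, which record position along the body, differed in both directions. Of 25 tested, 13 were higher and 6 lower under the sheath label, against 30.3% and 22.1% of all genes, so the lower share was near that of all genes. Every Hoxb gene tested had a positive fold change, and 7 of 8 passed. Hoxb8 (chromosome 11, 96279401 to 96285325) was measured at 12.3, 22.4 and 24.5 FPKM in the sheath-labelled libraries and 0.633, 1.33 and 0.845 FPKM in dermal stem cells (log2 fold change 3.38, SE 0.30, adjusted p = 0.000186), and Hoxb6 at 17.2, 31.1 and 29.2 FPKM in the sheath-labelled libraries and 1.27, 3.43 and 1.84 FPKM in dermal stem cells (3.09). In the Hoxa cluster, Hoxa5 was higher (2.81) and Hoxa10, further along the cluster, was lower, at 0.0283, 0.302 and 0 FPKM in the sheath-labelled libraries and 3.19, 1.68 and 3.26 FPKM in dermal stem cells (-1.72). In the Hoxc cluster, Hoxc10 was read at 0.0638, 0.818 and 0.39 FPKM in the sheath-labelled libraries and 5.58, 5.74 and 12.6 FPKM in dermal stem cells (-2.60) and Hoxc9 had -2.06, while Hoxc13, known for its role in hair shaft keratin expression, was higher (1.87). Hoxa10, Hoxc9 and Hoxc10 reached the filter through the stem cell libraries alone, and they are among the 6 counted as lower. Hoxc8, the neighbour of Hoxc9, did not pass, at 10.1, 20.3 and 21.2 FPKM against 17.3, 17.2 and 24.7 FPKM. With a filter at 5 FPKM 7 were higher and 3 lower, and without dermal stem cell replicates 1 and 2, 5 and 3, with the call of Hoxc13 lost.

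**Figure D5:**
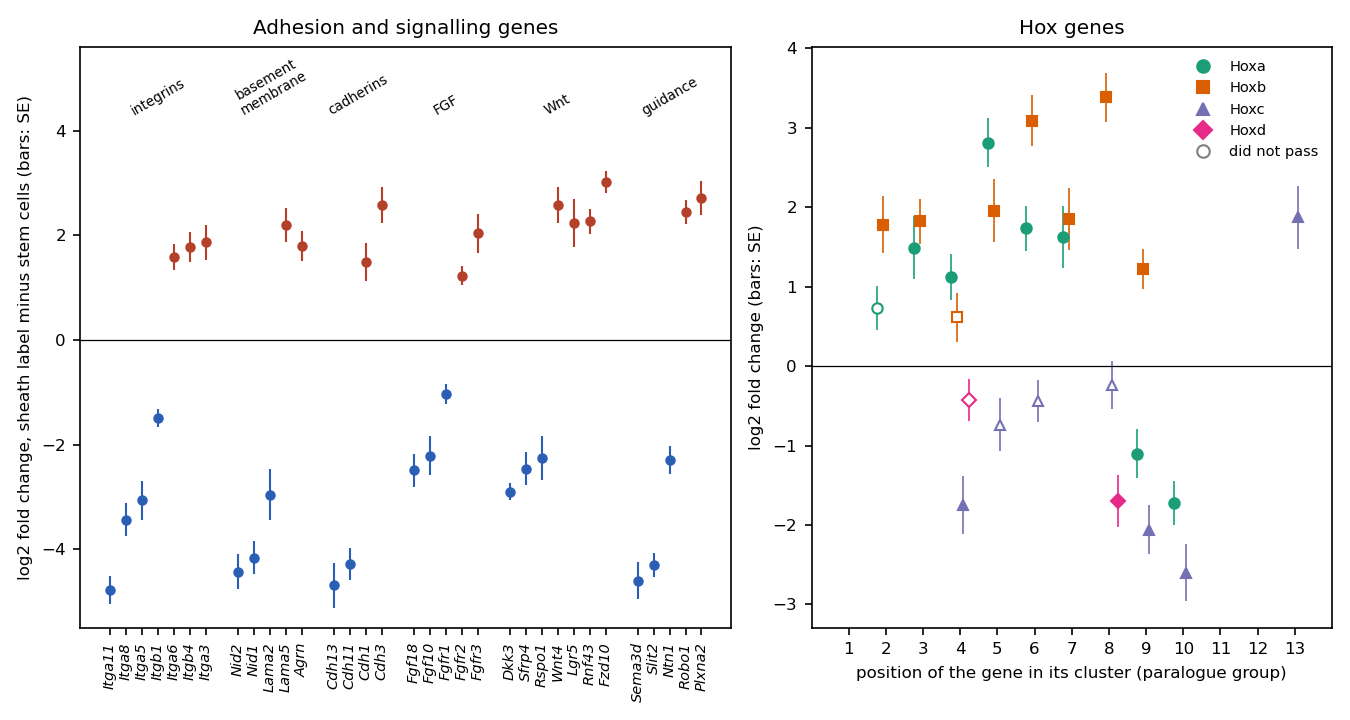
Left, log2 fold change (sheath label minus dermal stem cells, bars of 1 SE) of adhesion, basement membrane, FGF, Wnt and guidance genes, all of which passed. Sfrp4 among them reached the filter through the stem cell libraries alone, so its fold describes values only. Right, the same for 25 Hox genes by position in the cluster, with shape and colour for the cluster and open symbols for genes that did not pass, where Hoxb genes lie above 0 and the Hoxa and Hoxc genes at positions 9 and 10 lie below it.

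Among signalling genes, the list of Wnt antagonists with R-spondins and the list of Wnt receptors and their regulators differed in direction. Of 12 Wnt antagonist and R-spondin genes 0 were higher and 8 lower under the sheath label, while of 18 Wnt receptor genes 10 were higher and 0 lower. Dkk3, a Dickkopf family gene, was read at 4.12, 4.17 and 4.12 FPKM in the sheath-labelled libraries and 37.9, 34.4 and 39.9 FPKM in dermal stem cells (log2 fold change -2.90, SE 0.16, adjusted p = 3.26e-05). Sfrp4, a soluble frizzled-related protein gene, had -2.47 and reached the filter through the stem cell libraries alone. Fzd10, a frizzled receptor gene, was read at 23.4, 23.7 and 24.1 FPKM in the sheath-labelled libraries and 1.47, 2.67 and 2.09 FPKM in dermal stem cells (log2 fold change 3.02, SE 0.21, adjusted p = 7.2e-05). Lgr5, an R-spondin receptor gene of cycling follicle epithelium, was read at 14.98, 21.7 and 32.8 FPKM in the sheath-labelled libraries and 1.6, 7.89 and 4.1 FPKM in dermal stem cells (2.23), and Rnf43, the ubiquitin ligase that R-spondins act on, had 2.26. None of these groups overlapped. With median-of-ratios scaling 2 receptor genes of the list were lower, and without dermal stem cell replicates 1 and 2, 6 were higher.

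Only 8 of 18 Wnt ligand genes reached the filter. Wnt4 was read at 14.3, 12.96 and 23.98 FPKM in the sheath-labelled libraries and 1.37, 3.56 and 1.34 FPKM in dermal stem cells (2.58), while Wnt5b (-1.47) and Wnt9a (-1.82) were lower. The higher count was 3 without sheath-labelled replicate 1 and 2 without dermal stem cell replicate 4. Wnt5a did not pass, at 8.48, 15.5 and 26.9 FPKM in the sheath-labelled libraries and 6.5, 6.57 and 16.7 FPKM in dermal stem cells. Of 12 target genes 6 were higher and 4 lower. Tnfrsf19, a target and receptor of the hair placode, was read at 14.7, 18.9 and 14.6 FPKM in the sheath-labelled libraries and 1.25, 1.91 and 1.18 FPKM in dermal stem cells (2.81), and the feedback gene Axin2 at 5.85, 9.49 and 7.47 FPKM in the sheath-labelled libraries and 2.2, 2.79 and 1.59 FPKM in dermal stem cells (1.43). Nkd1, another feedback inhibitor gene, was lower (-1.61). The lower count was 2 without dermal stem cell replicate 1, 2 or 4.

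BMP genes gave 7 higher and 6 lower of 19 tested, not far from the 30.3% and 22.1% of all genes. The antagonist gene Nog, which encodes noggin, was lower, at 1.22, 0.305 and 3.21 FPKM in the sheath-labelled libraries and 13.1, 9.35 and 25.2 FPKM in dermal stem cells (-2.76). The ligand gene Bmp4 did not pass, at 4.52, 6.44 and 2.67 FPKM in the sheath-labelled libraries and 7.61, 5.64 and 18.4 FPKM in dermal stem cells. The higher count fell to 4 without dermal stem cell replicate 1 or 2 and with median-of-ratios scaling. Of 12 hedgehog genes 5 were higher and 3 lower, a lower share near that of all genes. Gli3, a pathway transcription factor gene that acts largely as a repressor, was read at 7.77, 11.7 and 14.6 FPKM in the sheath-labelled libraries and 3.03, 2.81 and 3.62 FPKM in dermal stem cells (1.54), while the transcriptional readout gene Gli1 did not pass, at 45.3, 41.9 and 60.95 FPKM against 33.3, 36.8 and 47.9 FPKM. The hedgehog count of higher genes fell to 3 without sheath-labelled replicate 1 or 5 or dermal stem cell replicate 1 or 2. The call of Gli3 ended without both of those stem cell libraries.

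Notch genes gave 4 higher and 1 lower of 13 tested, a higher share close to the 30.3% of all genes, and 2 were lower without sheath-labelled replicate 1. Notch1 was read at 71.5, 33.3 and 39.4 FPKM in the sheath-labelled libraries and 7.72, 8.36 and 5.7 FPKM in dermal stem cells (2.51), and its ligand gene Jag2 at 26.8, 17.8 and 36.9 FPKM in the sheath-labelled libraries and 2.53, 7.27 and 1.95 FPKM in dermal stem cells (2.62). Nrarp, a feedback gene of the pathway, had 2.55, and the effector gene Hes1 did not pass, at 53.8, 90.7 and 93.6 FPKM against 80.2, 90.3 and 90.6 FPKM. Ectodysplasin signalling, which specifies hair placodes, had 4 higher and 1 lower of 11, also near the shares of all genes. The lower call, of the inhibitor gene Nfkbia, ended on leaving out any 1 sheath-labelled replicate or dermal stem cell replicate 1 or 2, and its sign turned with quantile normalization (0.263). The receptor gene Edar was read at 6.06, 10.1 and 8.23 FPKM in the sheath-labelled libraries and 0.134, 0.252 and 0.324 FPKM in dermal stem cells (log2 fold change 2.86), and the adaptor gene Edaradd had 2.16. Both reached the filter through the sheath-labelled libraries alone, so no test of them is given. They are among the 4 counted as higher, a count that was thus in part bound to arise. Nfkb1 did not pass, at 43, 26.2 and 27.3 FPKM against 38.7, 36.8 and 27.2 FPKM.

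The FGF and EGF families gave 6 higher and 4 lower of 16, near the shares of all genes. Fgf10 was read at 1.53, 4.76 and 1.25 FPKM in the sheath-labelled libraries and 11.5, 12.7 and 17.9 FPKM in dermal stem cells (-2.21), and Fgf18 had -2.50. The receptor gene Fgfr3 was read at 37.4, 17.7 and 34.7 FPKM in the sheath-labelled libraries and 4.2, 10.2 and 5.37 FPKM in dermal stem cells (2.04). Its relatives differed in sign: Fgfr2, whose epithelial isoform binds FGF7 and FGF10, had 1.23, and Fgfr1 had -1.04. Of 17 PDGF, IGF and HGF genes 2 were higher and 11 lower, and 1 was higher without sheath-labelled replicate 4 or 5 or dermal stem cell replicate 1 or 4 and with median-of-ratios scaling. Igf1, a growth factor gene, was read at 0.937, 0.644 and 0.264 FPKM in the sheath-labelled libraries and 31.5, 29.2 and 20.2 FPKM in dermal stem cells (log2 fold change -4.11). It reached the filter through the stem cell libraries alone, so no test of it is given. The binding protein genes Igfbp2 (-4.53), Igfbp4 (-4.76) and Igfbp6 (-3.99) were lower. Of 15 TGF-beta and activin genes 1 was higher and 9 lower, with the receptor gene Tgfbr2 at 8.43, 7.99 and 9.19 FPKM in the sheath-labelled libraries and 78.1, 62.2 and 56.6 FPKM in dermal stem cells (-2.79).

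Axon guidance genes gave 6 higher and 11 lower of 22, against 30.3% and 22.1% of all genes, so the higher share was near that of all genes. Slit2, a secreted repellent gene, was read at 1.46, 0.902 and 0.847 FPKM in the sheath-labelled libraries and 40.6, 32.7 and 46.5 FPKM in dermal stem cells (-4.30), and the gene of its receptor, Robo1, at 64.8, 56.95 and 62.7 FPKM in the sheath-labelled libraries and 7.23, 11.5 and 13.7 FPKM in dermal stem cells (2.44). Sema3d was read at 1.18, 2.9 and 0.58 FPKM in the sheath-labelled libraries and 61.2, 41.4 and 71.9 FPKM in dermal stem cells (-4.60), and Plxna2, of the plexin family of semaphorin receptors, at 44.3, 22.01 and 27.7 FPKM in the sheath-labelled libraries and 3.26, 5.84 and 2.66 FPKM in dermal stem cells (2.71). Slit2 and Robo1 thus had opposite signs, as had Sema3d and Plxna2, without overlap between the groups. Robo2, another Slit receptor gene, was lower (-2.55), so not every receptor was higher.

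Genes of the cell cycle were higher under the sheath label in nearly every class. All tested members passed as higher in 5 lists: 16 of replication licensing, 20 of DNA synthesis and nucleotide supply, 16 of mitotic cyclins and kinases, 15 of the kinetochore and 16 of condensins and mitotic kinesins. Over all genes 30.3% were higher. These counts include Pold2 and Cdc20, listed at 0 in all dermal stem cell libraries, and Rfc4, Kif20a and Cenpk, listed at 0 in some, values that may be failed estimates and not low levels. Mcm5, a subunit of the replicative helicase, was read at 57.2, 52.1 and 70.6 FPKM in the sheath-labelled libraries and 3.27, 8.28 and 6.13 FPKM in dermal stem cells (log2 fold change 3.20, SE 0.29, adjusted p = 0.000201). Prim1, which encodes the primase subunit, was read at 59.8, 92.7 and 67.9 FPKM in the sheath-labelled libraries and 5.74, 11.7 and 11.9 FPKM in dermal stem cells (2.82), and Ccna2, the cyclin A2 gene, at 61.4, 90.02 and 85.95 FPKM in the sheath-labelled libraries and 3.35, 12.6 and 8.48 FPKM in dermal stem cells (3.26). In each the lowest sheath-labelled value was several times the highest stem cell value. The kinase gene Bub1 (3.06), the centromere motor gene Cenpe (2.93), the condensin gene Ncapg (3.34) and the spindle motor gene Kif11 (3.19) show the other classes. Cdc20 was listed at 0 in all dermal stem cell libraries and at 10.1, 8.51 and 17.9 FPKM under the sheath label.

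The replication genes were present in dermal stem cells at low level, with the licensing list summing to 66.07 to 119.1 FPKM against 413.1 to 543.8 FPKM. Replicate 1 had the lowest stem cell sum in each of the 5 lists. Among cell cycle transcription factors 13 of 16 were higher and 0 lower, with Mycn at 11.9, 16.04 and 25.8 FPKM in the sheath-labelled libraries and 0.62, 2.02 and 1.61 FPKM in dermal stem cells (2.95) and E2f2 at 11.6, 9.2 and 12.3 FPKM in the sheath-labelled libraries and 0.423, 1.56 and 0.576 FPKM in dermal stem cells (2.74). Myc did not pass, at 44.8, 37.9 and 50.9 FPKM against 47.5, 58.1 and 42.6 FPKM. Of 14 G1 cyclin and CDK inhibitor genes 8 were higher and 4 lower. Ccnd2, a D-type cyclin gene, was read at 124, 169.7 and 218 FPKM in the sheath-labelled libraries and 10.2, 24.5 and 13.5 FPKM in dermal stem cells (3.38), and Cdkn1c, an imprinted inhibitor gene, at 6.76, 5.1 and 1.99 FPKM in the sheath-labelled libraries and 80.2, 85.99 and 57.96 FPKM in dermal stem cells (-3.84). The 8 fell to 3 without dermal stem cell replicates 1 and 2, Ccnd2 among them.

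Promoters of 4 cell cycle genes are shown because their letters recur across the group. The elements searched on both strands in the 250 bases before the start were CCAAT, which binds NF-Y, and TTTGAA, the core of the cell cycle homology region through which cell cycle genes are repressed in quiescence. They do not overlap as motifs. The windows, from RefSeq on GRCm38.p6 and each on the minus strand, are Ccnb2 (cyclin B2) at chr9:70421555-70421804, Cdk1 (the mitotic kinase) at chr10:69352913-69353162, Top2a (a DNA topoisomerase) at chr11:99024190-99024439 and Mki67 at chr7:135716380-135716629. They read 5′ to 3′ toward the start, and capitals mark either element on either strand.
Ccnb2: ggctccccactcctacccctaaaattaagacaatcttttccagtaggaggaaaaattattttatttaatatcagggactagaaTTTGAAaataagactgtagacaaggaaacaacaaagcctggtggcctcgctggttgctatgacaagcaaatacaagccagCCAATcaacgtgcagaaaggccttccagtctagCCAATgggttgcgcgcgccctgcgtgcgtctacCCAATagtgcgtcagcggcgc
Cdk1: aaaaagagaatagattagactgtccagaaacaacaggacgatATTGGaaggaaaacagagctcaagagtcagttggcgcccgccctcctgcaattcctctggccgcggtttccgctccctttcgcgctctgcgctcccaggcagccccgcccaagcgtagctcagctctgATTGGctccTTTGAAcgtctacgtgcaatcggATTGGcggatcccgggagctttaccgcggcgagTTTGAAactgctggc
Top2a: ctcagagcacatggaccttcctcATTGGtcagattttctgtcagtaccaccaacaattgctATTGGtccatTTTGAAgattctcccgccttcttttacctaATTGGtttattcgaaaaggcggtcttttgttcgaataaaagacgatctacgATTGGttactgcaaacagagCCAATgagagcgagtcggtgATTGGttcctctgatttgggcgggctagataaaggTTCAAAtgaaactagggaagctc
Mki67: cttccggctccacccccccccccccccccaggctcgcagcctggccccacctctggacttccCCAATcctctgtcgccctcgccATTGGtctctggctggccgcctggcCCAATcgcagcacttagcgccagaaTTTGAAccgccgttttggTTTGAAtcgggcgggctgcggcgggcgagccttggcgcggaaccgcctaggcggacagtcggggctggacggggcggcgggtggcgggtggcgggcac
Ccnb2 holds 3 CCAAT matches, beginning 87, 54 and 21 bases before the start, and 1 TTTGAA match. Cdk1 holds 3 and 2, Top2a 6 and 2, and Mki67 3 and 2. The transcripts were read at 33.8, 60.01 and 59.1 FPKM in the sheath-labelled libraries and 2.75, 8.47 and 8.99 FPKM in dermal stem cells for Ccnb2 (2.83), at 21.3, 28.9 and 38.9 FPKM in the sheath-labelled libraries and 2.53, 8.39 and 4.95 FPKM in dermal stem cells for Cdk1 (2.36) and at 82.5, 123 and 124 FPKM in the sheath-labelled libraries and 3.63, 14.7 and 13.5 FPKM in dermal stem cells for Top2a (3.42).

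Over 41 promoters of 38 of the 47 mitotic list genes, 65.9% hold CCAAT and 31.7% TTTGAA. The shares were 34.6% and 10.5% over promoters of all tested genes, and 33.8% and 16% over all 32851 promoters of the table. Among genes at least 4-fold higher, with 358 promoters of 301 of 414 genes, they were 47.5% and 18.2%. Among genes at least 4-fold lower, with 895 promoters of 686 of 963 genes, they were 29.6% and 12.2%. The median number of CpG dinucleotides per window was 17 in the higher set, 9 in the lower set and 16 over all tested genes. The shares describe letters in these windows and were not tested.

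Genes of DNA repair and of chromatin copying were also higher. Of 16 homologous recombination and Fanconi genes 15 were higher and 0 lower. Of the 16, 2 were listed at 0 in all dermal stem cell libraries and 4 in at least 1, values that may be failed estimates. Rad54b, a DNA translocase gene of recombination, was read at 6.95, 17.6 and 8.01 FPKM in the sheath-labelled libraries and 0.339, 0.475 and 1.09 FPKM in dermal stem cells (log2 fold change 2.78, SE 0.37, adjusted p = 0.000748). Fanci, of the Fanconi pathway that repairs DNA crosslinks, was listed at 0 in all dermal stem cell libraries and at 6.46, 6 and 7.64 FPKM under the sheath label. Of 16 chromatin genes 15 were higher and 1 lower. Uhrf1, which brings DNA methyltransferase to copied DNA, was read at 13.4, 20.2 and 27.9 FPKM in the sheath-labelled libraries and 0.511, 1.42 and 2.49 FPKM in dermal stem cells (3.15), and Dnmt1 itself at 52.6, 59.8 and 62.4 FPKM in the sheath-labelled libraries and 5.2, 9.66 and 6.46 FPKM in dermal stem cells (2.90). Lmnb1, the lamin B1 gene, was higher (2.74), and Lmna, the gene of A-type lamins that mark stiff and differentiated tissue, was the lower member (-0.87), a call that ended without sheath-labelled replicate 4 or any 1 dermal stem cell replicate.

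Ribosome assembly and splicing factor genes were higher as well, with smaller folds. Of 19 ribosome biogenesis genes 18 were higher and 0 lower, with 2 of the 19 listed at 0 in at least 1 dermal stem cell library. Ncl, the nucleolin gene, was read at 76.8, 107 and 112 FPKM in the sheath-labelled libraries and 18.6, 25.1 and 24.1 FPKM in dermal stem cells (log2 fold change 2.07, SE 0.21, adjusted p = 0.000293), and Polr1a, the large subunit of RNA polymerase I, at 15.8, 11.6 and 12.7 FPKM in the sheath-labelled libraries and 2.4, 3.61 and 2.17 FPKM in dermal stem cells (1.96). The structural ribosomal protein genes were more even, with 13 of 58 higher and 1 lower, and 8 higher without dermal stem cell replicate 2. Rpl39l, a testis-enriched paralogue, was the lower one, at 1.1, 0.162 and 0.529 FPKM in the sheath-labelled libraries and 41.04, 32.9 and 54.02 FPKM in dermal stem cells, and reads of near-identical copies cannot be told apart in these genes.

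Of 22 splicing factor genes 19 were higher and 1 lower. The epithelial splicing regulator genes led: Esrp1 was read at 72.8, 72.9 and 76.7 FPKM in the sheath-labelled libraries and 8.85, 15.6 and 8.74 FPKM in dermal stem cells (log2 fold change 2.69, SE 0.23, adjusted p = 0.000166) and Esrp2 at 24, 15.9 and 21.98 FPKM in the sheath-labelled libraries and 2.8, 5.03 and 2.79 FPKM in dermal stem cells (2.27). These proteins set the epithelial splice form of Fgfr2 and other receptors. Srsf1, a general splicing factor gene, was read at 75.7, 99.9 and 83.6 FPKM in the sheath-labelled libraries and 15.6, 26.8 and 24.4 FPKM in dermal stem cells (1.93). The lower member was Rbfox2, a regulator of mesenchymal and muscle splicing, at 7.48, 7.14 and 8.32 FPKM in the sheath-labelled libraries and 14.4, 16.3 and 18.8 FPKM in dermal stem cells (-1.01), while Mbnl1, the muscleblind gene, did not pass (51.5, 68.9 and 74.2 FPKM against 77.5, 57.3 and 71.9 FPKM). The 19 became 12 without dermal stem cell replicates 1 and 2.

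Metabolic lists gave mixed counts, to be set against 30.3% of all tested genes higher and 22.1% lower. Of 15 cholesterol synthesis genes 9 were higher and 0 lower, led by Lss, the lanosterol synthase gene, at 15.3, 20.9 and 10.8 FPKM in the sheath-labelled libraries and 2.47, 2.75 and 2.06 FPKM in dermal stem cells (2.24), and 3 were higher without dermal stem cell replicates 1 and 2. Glycolysis gave 1 higher and 3 lower of 14, a lower share near that of all genes. The hexokinase gene Hk1 led the lower ones, at 4.33, 2.1 and 2.15 FPKM in the sheath-labelled libraries and 11.2, 10.5 and 9.73 FPKM in dermal stem cells (-1.61). The lower count was 5 without sheath-labelled replicate 1 or dermal stem cell replicate 4. Of 70 oxidative phosphorylation genes 18 were higher, a share not above that of all genes, and 3 lower. The 18 became 8 without dermal stem cell replicate 1, 11 without sheath-labelled replicate 5 and 7 with median-of-ratios scaling. Ndufs1, a subunit gene of complex I, was read at 46.9, 46.9 and 45.5 FPKM in the sheath-labelled libraries and 18.1, 20.2 and 22.4 FPKM in dermal stem cells (1.16). Several very abundant genes with near-identical copies, such as Gapdh and Eno1, did not reach the filter, so these lists miss them.

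Imprinted genes that restrain or support fetal growth were lower under the sheath label. Of 15 tested 0 were higher and 10 lower. Meg3 (chromosome 12, 109540996 to 109571729), a maternally expressed noncoding RNA gene, was measured at 6.46, 4.93 and 2.79 FPKM in the sheath-labelled libraries and 143, 128 and 173 FPKM in dermal stem cells (log2 fold change -4.75, SE 0.27, adjusted p = 3.26e-05). Gpc3, an X-linked gene placed on this list as a regulator of fetal growth, was at 6.27, 8.19 and 6.53 FPKM in the sheath-labelled libraries and 292, 296 and 433 FPKM in dermal stem cells. Ndn, the necdin gene, was read at 1.18, 0.0395 and 0.516 FPKM in the sheath-labelled libraries and 29.2, 22.6 and 30.4 FPKM in dermal stem cells (-4.22). All stem cell libraries were above all sheath-labelled ones for these genes. Mest was listed at 0 in every sheath-labelled library and at 6.8, 12.9 and 28.9 FPKM in dermal stem cells. H19 did not pass, at 2.74, 2.89 and 2.44 FPKM in the sheath-labelled libraries and 2.9, 18.8 and 6 FPKM in dermal stem cells, and Igf2 was at 1.34, 2.46 and 1.4 FPKM against 1.38, 3 and 0.282 FPKM.

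Chemokine and complement genes were lower, with 0 higher and 14 lower of 16. Serping1, the complement C1 inhibitor gene, was read at 29.1, 16.7 and 7.37 FPKM in the sheath-labelled libraries and 582, 505 and 575 FPKM in dermal stem cells (log2 fold change -5.07, SE 0.42, adjusted p = 0.000137), and Cxcl12, a stromal chemokine gene, at 27.9, 22.5 and 17.1 FPKM in the sheath-labelled libraries and 274, 426 and 237 FPKM in dermal stem cells (-3.72). Both were high in all 3 stem cell libraries, and the part of immune cells in them was not tested. Ccl7 was read at 1191, 755 and 247 FPKM in dermal stem cells and Ccl2 at 780.0, 523 and 171 FPKM, against 55.9, 36.5 and 4.67 and 80.2, 62.8 and 20.4 FPKM. Their calls (-4.73 and -3.10) ended without dermal stem cell replicates 1 and 2, when 6 of the 16 were lower, and the part of immune cells in them was not tested.

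Of 13 interferon response genes 0 were higher and 10 lower. B2m, the light chain of class I molecules, was read at 192, 241 and 142 FPKM in the sheath-labelled libraries and 1788, 1170.0 and 731 FPKM in dermal stem cells (-2.61), and Irf1 at 24.2, 36.5 and 38.7 FPKM in the sheath-labelled libraries and 172, 137 and 143 FPKM in dermal stem cells (-2.17). The 10 became 6 with a filter of 5 FPKM. With the replicate number as a block they became 6 in the fit of all 12 libraries and 5 in that of 6. Fewer were also lower without dermal stem cell replicates 1 and 2. Among 19 immediate early and heat shock genes, which respond to tissue dissociation, 1 was higher and 5 lower. That lower share was near the 22.1% of all genes. Klf2, a flow-responsive factor gene, was read at 9.75, 3.73 and 5.42 FPKM in the sheath-labelled libraries and 88.2, 84.7 and 71.8 FPKM in dermal stem cells (-3.58), and the phosphatase gene Dusp1 had -2.07. Jun did not pass, at 396, 266 and 343 FPKM in the sheath-labelled libraries and 306, 361 and 279.8 FPKM in dermal stem cells, nor did Atf3, at 327, 178 and 235 FPKM against 373, 357 and 183 FPKM, and 8 genes of the list were lower without sheath-labelled replicate 5.

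Remaining markers of neighbouring mesenchyme also favoured dermal stem cells. Of 16 dermal papilla marker genes 0 were higher and 14 lower. Corin, a protease gene of the papilla, was read at 6.51, 5.39 and 1.39 FPKM in the sheath-labelled libraries and 106, 61.9 and 104 FPKM in dermal stem cells (log2 fold change -4.20, SE 0.44, adjusted p = 0.000319), and Ncam1, an adhesion gene of follicle mesenchyme, at 2.56, 3.75 and 1.76 FPKM in the sheath-labelled libraries and 23.8, 23.6 and 37.6 FPKM in dermal stem cells (-3.00). The papilla genes Alpl (3.31, 4.54 and 1.48 FPKM against 4.15, 8.02 and 21.4 FPKM) and Trps1 (5.72, 12.4 and 6.96 FPKM against 7.81, 8.1 and 16.7 FPKM) did not pass. The count was 9 without dermal stem cell replicates 1 and 2. Lpl, the lipoprotein lipase gene on the adipocyte list, was read at 8.06, 6.18 and 2.75 FPKM in the sheath-labelled libraries and 146, 166 and 196 FPKM in dermal stem cells (-4.76), while the fat cell gene Adipoq did not reach the filter.

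The outer root sheath and bulge list was divided, with 5 higher and 6 lower of 12. Krt75, a keratin of the companion layer, was read at 66.5, 34.04 and 65.8 FPKM in the sheath-labelled libraries and 9.17, 16.9 and 5.61 FPKM in dermal stem cells (2.35). Cd34, which marks bulge cells and also fibroblasts and vessels, was lower, at 11.6, 11.7 and 5.08 FPKM in the sheath-labelled libraries and 72.7, 83.7 and 79.1 FPKM in dermal stem cells (-3.00), and Postn, on this list but better known as a fibroblast matrix gene, had -4.35. Without dermal stem cell replicates 1 and 2, 3 were higher, Krt75 among them.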

How the data were processed

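The deposited table gives FPKM values made by the authors from SOLiD reads, and the submitters' processing notes name TopHat2 2.0.13, SAMtools, Cufflinks 2.2.1 and the genome build mm10 but no annotation, settings or order of steps. Raw counts were not used here, so no counting interval can be given. The table has 1 column per library, matched to samples by title.

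Entries with at least 1 FPKM in at least 3 of the 6 libraries were analysed as log2(FPKM + 1), with a pseudocount of 1, in limma 3.58.1 under R 4.3.3. The model held 2 group means, with empirical Bayes moderation, a mean-variance trend and Benjamini-Hochberg adjustment at 0.05 (two-sided, 4 residual degrees of freedom). The fit was tested on simulated data. Members and the 59 lists were chosen with earlier results of these data known. Of list members, Flg, Adgre1 and Knl1 were not matched and are not analysed here, and some tested genes are not reported here.

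Named genes are, for each list, at most 5 that passed with the largest folds, the reporters and defining markers, and the 15 largest folds in each direction where the groups did not overlap and the higher mean reached 5 FPKM. Outside this rule, and chosen after their values were seen, are Agrn, Axin2, Ccnb2, Cdh1, Cdk1, Col4a1, Col4a2, Dcn, Fgfr1, Fgfr2, Hoxa10, Hoxc13, Itga6, Itgb1, Klf4, Krt71, Lama3, Lamb3, Lmna, Mkl1, Myl9, Rbfox2, Robo1, Robo2, Srf, Thy1 and Tnc. Positions and promoters are RefSeq's for GRCm38.p6, matched by Entrez identifier for 11393 genes, and the authors' annotation may differ.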

Additional observations from a re-analysis of the deposited data

How the results depend on the processing

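The count of differing genes ran from 4686 to 6130 over the alternatives tried on all 6 libraries or on all 12, with no call in the opposite direction. A filter of 5 FPKM gave 2974 higher and 1861 lower genes, no filter 3114 and 2478, quantile normalization 3492 and 2571, pseudocounts of 0.1 and 0.5 gave 5976 and 6113 in all, and moderation without a trend gave 6130. Leaving out 1 library gave 4783 to 5705 (2707 to 3270 higher, 2076 to 2611 lower). Without dermal stem cell replicates 1 and 2, chosen after seeing the data for their immune transcripts, 2767 genes differed, 1505 higher and 1262 lower, with 2 libraries fewer and the lone stem cell library assumed to vary like the others. Of the 923 list genes tested 622 passed, and 429 passed without those libraries, when the counts of higher genes fell to 1 for BMP, 1 for hedgehog, 2 for Wnt targets, 3 for integrins, 3 for the FGF and EGF families, 2 for oxidative phosphorylation and 2 for ribosomal proteins, and those of lower genes to 4 for laminins, 1 for Schwann cells and 0 for glycolysis.

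The labels share only replicate numbers 1 and 4 between the groups and do not say that a number pairs libraries. Deviations from the group means correlated at 0.313 for number 1 and 0.15 for number 4, and at -0.3 to 0.161 for other pairs. With the replicate number as a block, 4686 genes differed in the 6 libraries, with 1 residual degree of freedom, and 5125 in a fit of all 12. The fold change of Cpa3 turned from -0.34, where it did not pass, to 1.81 with the block in 6 libraries, where it did (adjusted p = 0.018), and that of Dcn turned from -1.17 to 0.228 with quantile normalization, where it did not pass. That of Nfkbia, called lower, turned to 0.263 with quantile normalization, where it did not pass. The cause was not tested.

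Depth is unknown, so low values carry an error that cannot be stated. Genes listed at exactly 0 and abundant genes with near-identical copies are not measured reliably in this table.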
